A study of Mus musculus with 8 samples.

Results

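Toll-like receptors are the membrane receptors with which resident and recruited cells of the skin sense microbial lipids, proteins and nucleic acids. The 10 genes described here, Tlr1 to Tlr9 and Tlr13, were chosen by gene symbol from a table of 18901 genes, and all 10 had enough counts to be tested. RNA came from the cheek skin of 8 female mice, 7 weeks old, whose fur had been shaved and whose left cheek had received 10 µg of B-type natriuretic peptide (BNP), a peptide that evokes scratching, by injection into the skin. In the 4 TBX20fl/fl;K14-Cre mice (conditional knockout, cKO) a floxed Tbx20 gene loses exons 2 and 3 in cells that express Cre from the keratin 14 promoter, that is in keratinocytes, while other cells that use Tbx20 keep it. The 4 TBX20fl/fl mice (controls) are littermates that carry the same floxed alleles and no Cre, and both groups received BNP, so every comparison is one of genotype under BNP and no uninjected or vehicle-injected skin was analysed here. The floxed line was C57BL/6J and the Cre line C57BL/6N, tissue was taken 5 h after a 30 min recording of scratching, and each mouse gave 1 library. The comparison asks whether loss of TBX20, a T-box transcription factor, in keratinocytes goes with a different receptor repertoire in the injected skin.

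In the textbook account, TLR1, TLR2, TLR4, TLR5 and TLR6 stand at the cell surface, and TLR3, TLR7, TLR8, TLR9 and TLR13 face the inside of endosomes, where they meet nucleic acids. Ligand binding brings the cytoplasmic TIR domains of a receptor pair together, and the adaptors MyD88 and TRIF relay the signal to NF-kB, AP-1 and interferon regulatory factors, which turn on cytokine genes. In skin, macrophages, dendritic cells, mast cells and neutrophils carry most of these receptors, and keratinocytes carry some of them.

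Tlr1 and Tlr6 lie close together on the minus strand of chromosome 5, and part of their coding sequence is the same, which matters because the reads were 50 bases long. Over the aligned coding sequence they were identical at 77.0% of 2339 bases, and no other pair of the 10 genes exceeded 64.5%. The longest run that they share is 229 bases, against at most 16 bases in any other pair. This run is printed as read on the coding strand, since a read from inside it cannot be assigned to either gene. It lies at chr5:64925537-64925765 in Tlr1 (coding bases 1468 to 1696) and at chr5:64953828-64954056 in Tlr6 (coding bases 1507 to 1735) on GRCm38, in the only coding exon of each gene.
Tlr1 and Tlr6 shared run: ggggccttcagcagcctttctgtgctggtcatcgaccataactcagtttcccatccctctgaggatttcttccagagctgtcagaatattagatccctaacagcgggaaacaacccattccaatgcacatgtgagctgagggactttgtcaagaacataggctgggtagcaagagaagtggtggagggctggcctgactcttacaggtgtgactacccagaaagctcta
Of the 3332 stretches of 50 bases in the annotated transcripts of Tlr1, 13.6% also occur in Tlr6, and of the 3702 stretches of Tlr6, 12.3% occur in Tlr1. Including other genes, 15.4% of the stretches of Tlr1 were not its own, so the counts of this pair depend on how the deposited counting divided such reads. Tlr4 shared 1 stretch with another gene, and the remaining 7 genes shared none.

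The other members are spread over the genome. In the GENCODE annotation of GRCm38, Tlr2 lies on chromosome 3 from 83836272 to 83841767 (minus strand), Tlr4 on chromosome 4 from 66827584 to 66930284 (plus) and Tlr5 on chromosome 1 from 182954788 to 182976044 (plus). Tlr3 lies on chromosome 8 from 45395665 to 45411080 (minus) and Tlr9 on chromosome 9 from 106222598 to 106226883 (plus). The X chromosome holds Tlr7 from 167304929 to 167330558 and Tlr8 from 167242696 to 167264329, neighbours on the minus strand, and Tlr13 from 106143204 to 106160493 on the plus strand. Tlr1 spans 64924679 to 64933563 and Tlr6 spans 64952031 to 64960097 on chromosome 5. Coding sequences ran from 2352 bases in Tlr2 to 3150 bases in Tlr7, and their GC content from 39.8% in Tlr8 to 56.7% in Tlr9.

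Because the deleted factor is a T-box protein, and because NF-kB, AP-1, interferon-responsive and PU.1 sites are typical of immune gene promoters, the 250 bases before the RefSeq start of each gene (GRCm38.p6) were read for these motifs on both strands. RefSeq promoters were at hand for 8 of the 10 genes, in 10 entries, and not for Tlr4 and Tlr7. The T-box motif AGGTGTGA, present in 1.12% of all 32851 promoters, had no match in the 10 entries, which says only that these letters are not in those windows. The windows printed here are those in which a rarer motif, or the palindromic NF-kB match of Tlr2, was found, with the match in capitals on the strand of the gene.
Tlr2, NF-kB (GGG, 5 bases of any kind, CC), chr3:83841761-83841790: aggacacctgGGGAATTCCCacacggagcc
Tlr6, interferon-stimulated response element (GAAA, 2 bases of any kind, GAAA), chr5:64959263-64959292: tgactattctTTTCTCTTTCactttctgtt
Tlr1, PU.1 (GAGGAAGT), chr5:64933563-64933592: attaaatgttgGAGGAAGTaggagcttgaa
Tlr9, AP-1 (TGANTCA), chr9:106222529-106222558: caaatgatgtgTGACTCAttgtaccacctg
The NF-kB letters occur in 45.8% of all promoters, and Tlr3, Tlr5 and Tlr6 matched them too, so this match sets nothing apart. The response element occurs in 2.98% of promoters, PU.1 in 2.44% and AP-1 in 6.75%. In Tlr2 the match starts 172 bases before the start site and overlaps a further match shifted by 1 base, and in Tlr6 the response element shown overlaps a further match at 110 bases. Tlr8 and Tlr13 held none of the 5 motifs. These matches are descriptions of sequence and not binding sites.

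The total count per mouse was 16056282 to 19880654, at which 3 counts correspond to 0.151 to 0.187 CPM (counts scaled to a fixed library total), a floor that covers counting error only. Tbx20 had 0 to 2 counts in cKO mice and 0 to 3 in control mice, so the deletion cannot be checked in these libraries. Control replicate 2 stood apart from the others, with a median Spearman correlation across genes of 0.919 with the other mice, against 0.974 to 0.990 for the rest, and with a summed FPKM over all genes of 772536 against 521852 to 605508. In edgeR's quasi-likelihood test on the counts, 0 of 17124 genes had an adjusted p under 0.05 (0%), 1431 had an unadjusted p under 0.05 (8.36%), and DESeq2 called 10 (0.0584%), none of them a receptor. Skeletal muscle markers (5 genes) summed to an FPKM of 5879 to 10303 and keratinocyte markers (6 genes) to 2853 to 4225, so both tissues were present in every mouse. In whole tissue, fewer cells of a type and less RNA per cell cannot be told apart.

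All 10 receptors were detected in all 8 mice. Counts ranged from 24 for Tlr9 in the mouse that stood apart to 1919 for Tlr4 in control replicate 4. On the FPKM scale (fragments per kilobase of transcript at a fixed library total), which allows genes to be compared, the mean level over the 8 mice was highest for Tlr2 (12.4 ± 3.17, SD, n = 8), Tlr3 (10.6 ± 2.15) and Tlr4 (9.80 ± 1.78). Tlr7 (7.09 ± 1.37) and Tlr8 (6.24 ± 1.77) followed, then Tlr13 (4.54 ± 2.70), Tlr1 (3.57 ± 1.23), Tlr9 (2.62 ± 1.19), Tlr5 (2.45 ± 0.976) and Tlr6 (1.55 ± 0.608). The order was read from these same 8 mice, so neighbours in it are described by the number of mice that kept it, with no test. Tlr4 lay above Tlr7 in 8 of 8 mice, and Tlr7 above Tlr8, Tlr8 above Tlr13 and Tlr5 above Tlr6 in 7 each. Tlr2 lay above Tlr3 and Tlr1 above Tlr9 in 6, and Tlr13 above Tlr1 in 5. Tlr3 lay above Tlr4 and Tlr9 above Tlr5 in 4 of 8, so these neighbours were not separated. The transcript lengths behind the FPKM values, derived from counts, were well above the annotated coding transcripts for Tlr4 (7.84 kb against 4077 bases), Tlr7 (5.18 kb against 3897 bases) and Tlr8 (4.72 kb against 3431 bases) and shorter for Tlr6 (2.80 kb against 3677 bases), and the place of these genes in the order depends on those lengths.

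**Figure D1:**
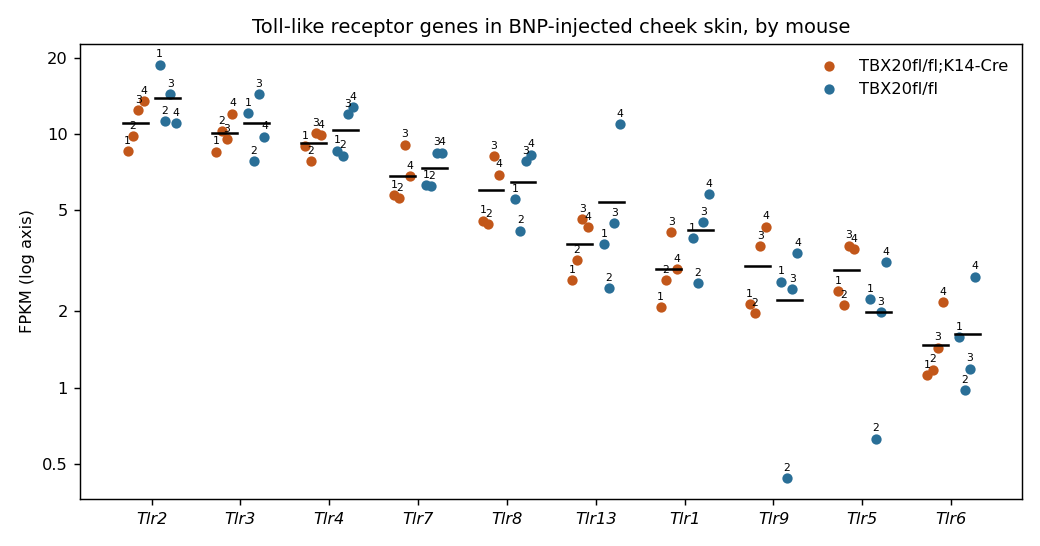
FPKM of the 10 receptor genes (log axis), 1 point per mouse labelled with its replicate number, with TBX20fl/fl;K14-Cre mice in orange and TBX20fl/fl mice in blue; bars mark group means. The groups overlapped for all 10 genes, and TBX20fl/fl replicate 2 lay far below the other mice for Tlr9 (0.44) and Tlr5 (0.63).

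No receptor passed the test between the genotypes. The log2 fold change from counts, cKO over control, was below 0 for 8 of the 10 receptors, against 47.5% of all genes tested. Its median over the receptors was -0.27, and the median of all genes was 0.03. No receptor had an adjusted p under 0.05 in edgeR's test (range 0.498 to 0.670), and 2 had an unadjusted p under 0.05, Tlr1 and Tlr2, both lower, where 5.91% of all genes tested were lower and 2.45% higher by that rule. For no receptor did the 4 mice of one genotype all lie below the other 4 in FPKM, which was so for 7.37% of 15970 genes (cKO below in 1.92%, above in 5.45%), and the same was true for CPM scaled by TMM, edgeR's trimmed mean of M values. In two-sided exact permutation tests of mean FPKM over the 70 assignments of the mice, p ran from 0.171 for Tlr5 to 0.714, and the smallest p that the design allows is 0.0286. limma on log2(FPKM + 1) gave 0 receptors and 6.55% of all genes an unadjusted p under 0.05.

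The number of receptors lower at an unadjusted p under 0.05 moved with the model. With mice of the same replicate number taken as a block it was 1, Tlr1, where 6.54% of all genes were lower by that rule. Without control replicate 2 it was 2, Tlr1 and Tlr13 (all genes, 4.5%). With a trend against transcript length removed from each library it was 6, Tlr1, Tlr2, Tlr3, Tlr4, Tlr7 and Tlr13 (all genes, 5.76%), 8 of 10 fold changes were below 0 (all genes, 48.8%), and the median was -0.52 against 0.0092 for all genes. With the trend and the block together it was again 6, with Tlr8 in place of Tlr2 (all genes, 6.38%). No adjusted p of a receptor was under 0.05 in any of these edgeR fits, the smallest being 0.405 with the block and 0.463 with the trend and the block.

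Tlr2, Tlr1 and Tlr6 recognise bacterial and fungal lipoproteins, TLR2 as the shared partner that pairs with TLR1 or TLR6. Tlr2 FPKM was 8.57, 9.79, 12.4 and 13.5 in cKO replicates 1 to 4 and 18.8, 11.2, 14.3 and 11.0 in control replicates 1 to 4, the order kept for every gene that follows. The lowest 2 values belonged to cKO mice, but the other 2 of that group lay among the controls, and control replicate 1 was the highest. Means were 11.1 ± 2.26 and 13.8 ± 3.63 (SD, n = 4 each; exact permutation test, p = 0.257). From counts, the log2 fold change was -0.48 (95% interval -0.94 to -0.028, edgeR adjusted p = 0.498), equal to 0.715 times the control level.

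Tlr1 FPKM was 2.08, 2.66, 4.11 and 2.94 in the cKO mice and 3.90, 2.59, 4.49 and 5.80 in the controls. Here 3 of the 4 cKO mice lay at or below 2.94 and 3 of the 4 controls at or above 3.90. The overlap in FPKM came from cKO replicate 3 and control replicate 2. In TMM-scaled CPM it came from cKO replicate 3 alone, at 10.9, with the controls at 10.1 to 15.7. Mean FPKM was 2.95 ± 0.854 and 4.2 ± 1.33 (SD, n = 4 each; exact permutation test, p = 0.200). Tlr1 had the smallest p of the family, with a log2 fold change of -0.64 (95% interval -1.16 to -0.11, adjusted p = 0.498 from edgeR's test), 0.644 times the control level. In TMM-scaled CPM the cKO mouse was lower in 4 of 4 same-numbered pairs. The share of all genes with 4 of 4 pairs in 1 direction was not computed, so pair counts here and below are descriptions only. The log2 fold change of Tlr1 was -0.50 without control replicate 4 and -0.83 at the other end of the range when each mouse was left out in turn.

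Tlr6, the lowest of the family, had an FPKM of 1.12, 1.18, 1.44 and 2.17 in cKO mice and 1.58, 0.98, 1.19 and 2.74 in controls. The mouse numbered 4 was highest in each group. Means were 1.48 ± 0.482 and 1.62 ± 0.785 (SD, n = 4 each; exact permutation test, p = 0.714). Its log2 fold change of -0.25 (95% interval -0.96 to 0.46, adjusted p = 0.658 from edgeR's test) rested on control replicate 4, without which it was 0.06, and was -0.50 without cKO replicate 4. The counts of Tlr1 and Tlr6 can include reads from the shared sequence shown above, and the effect of how these were divided was not tested.

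Tlr4 senses lipopolysaccharide together with Ly96 (MD-2) and Cd14. Its FPKM was 8.99, 7.83, 10.1 and 9.92 in cKO mice and 8.61, 8.23, 12.0 and 12.8 in controls. On that scale replicates 3 and 4 of the controls were the highest and the rest lay together. In TMM-scaled CPM control replicate 2, at 87.8, also lay above the cKO mice, at 57.7 to 74.3. Mean FPKM was 9.21 ± 1.04 and 10.4 ± 2.31 (SD, n = 4 each; exact permutation test, p = 0.371). From counts, its fold change was, on the log2 scale, -0.33 (95% interval -0.70 to 0.04, adjusted p = 0.498 from edgeR's test). After correction of each library for transcript length it became -0.95, the furthest that this correction moved any member. The correction used the 7.84 kb derived from counts and FPKM, whereas the longest annotated coding transcript of the family is that of Tlr3, at 4407 bases.

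Tlr5, the receptor of bacterial flagellin, was 1 of the 2 members with a higher mean in cKO skin. Its FPKM was 2.40, 2.11, 3.63 and 3.51 there and 2.23, 0.63, 1.98 and 3.12 in controls. The control at 0.63 was control replicate 2, and the other 7 mice ran from 1.98 to 3.63. Means were 2.91 ± 0.770 and 1.99 ± 1.03 (SD, n = 4 each; exact permutation test, p = 0.171). On the log2 scale its fold change was 0.44 (95% interval -0.33 to 1.22, adjusted p = 0.530 from edgeR's test). It was 0.20 without that mouse, 0.72 without control replicate 4 and 0.54 with the block. In TMM-scaled CPM the cKO mouse was higher in 4 of 4 same-numbered pairs, but by little in the pair numbered 4, at 10.5 against 10.1.

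Among the endosomal receptors, Tlr3, which binds double-stranded RNA and is also expressed by keratinocytes, was the most abundant. Tlr3 FPKM was 8.52, 10.3, 9.57 and 12.0 in cKO mice and 12.1, 7.82, 14.4 and 9.77 in controls. In FPKM, controls spanned a wider range on both sides, with the lowest and the highest value of all 8 mice among them. In TMM-scaled CPM the lowest mouse was instead cKO replicate 1, at 35.2, and control replicate 2 was at 45.5. Mean FPKM was 10.1 ± 1.48 and 11.0 ± 2.83 (SD, n = 4 each; exact permutation test, p = 0.600), while the log2 fold change was -0.27 (95% interval -0.65 to 0.10, adjusted p = 0.501 from edgeR's test). It was -0.15 without control replicate 3 and -0.52 after the length correction.

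Tlr7 and Tlr8, neighbours on the X chromosome that sense single-stranded RNA and its breakdown products, showed the same order of mice in cKO skin. Tlr7 FPKM was 5.75, 5.61, 9.08 and 6.83 in cKO mice and 6.29, 6.23, 8.45 and 8.45 in controls. Tlr8 FPKM was 4.56, 4.42, 8.20 and 6.92 in cKO mice and 5.54, 4.16, 7.83 and 8.30 in controls. For both genes replicates 3 and 4 of either genotype lay above replicates 1 and 2 in FPKM, and the groups overlapped. In TMM-scaled CPM this order did not hold for Tlr7 in controls, where replicate 2 was the highest at 43.4. In same-numbered pairs, the cKO mouse was lower in TMM-scaled CPM in 3 of 4 pairs for Tlr7 and in 4 of 4 for Tlr8. The log2 fold change was -0.27 for Tlr7 (95% interval -0.66 to 0.12, adjusted p = 0.508 from edgeR's test). For Tlr8 it was -0.23 (95% interval -0.78 to 0.32, adjusted p = 0.610 from edgeR's test). With the length trend removed these values were -0.66 and -0.50, and with the block -0.28 and -0.25. Leaving out each mouse in turn gave -0.41 (without cKO replicate 3) to -0.19 (without cKO replicate 2) for Tlr7 and, without the same mice, -0.42 to -0.10 for Tlr8. Mean FPKM was 6.82 ± 1.60 and 7.36 ± 1.26 for Tlr7 and 6.03 ± 1.85 and 6.46 ± 1.95 for Tlr8 (SD, n = 4 each; exact permutation test, p = 0.714 for both).

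Tlr9, which senses unmethylated CpG DNA, had an FPKM of 2.14, 1.97, 3.62 and 4.32 in cKO mice and 2.62, 0.44, 2.45 and 3.40 in controls. It was the other member with a higher mean in cKO skin, 3.01 ± 1.14 against 2.23 ± 1.26 (SD, n = 4 each; exact permutation test, p = 0.457). The highest mouse was 9.82 times the lowest, the widest range of the family, and the lowest was again control replicate 2. The log2 fold change of 0.35 (95% interval -0.66 to 1.36, adjusted p = 0.670 from edgeR's test) was 0.05 without that mouse, 0.59 without control replicate 4 and 0.13 without cKO replicate 4.

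Tlr13 senses bacterial ribosomal RNA. Its FPKM was 2.66, 3.18, 4.61 and 4.30 in cKO mice and 3.69, 2.47, 4.47 and 10.9 in controls. Control replicate 4 stood at more than 2 times every other mouse, and the remaining controls lay within the range of the other genotype or just below it. Means were 3.69 ± 0.920 and 5.39 ± 3.77 (SD, n = 4 each; exact permutation test, p = 0.600). The family's largest log2 fold change, -0.65 (95% interval -1.49 to 0.18, adjusted p = 0.499 from edgeR's test), rested on that mouse, without which it was -0.13. In TMM-scaled CPM the cKO mouse was lower in 4 of 4 same-numbered pairs.

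**Figure D2:**
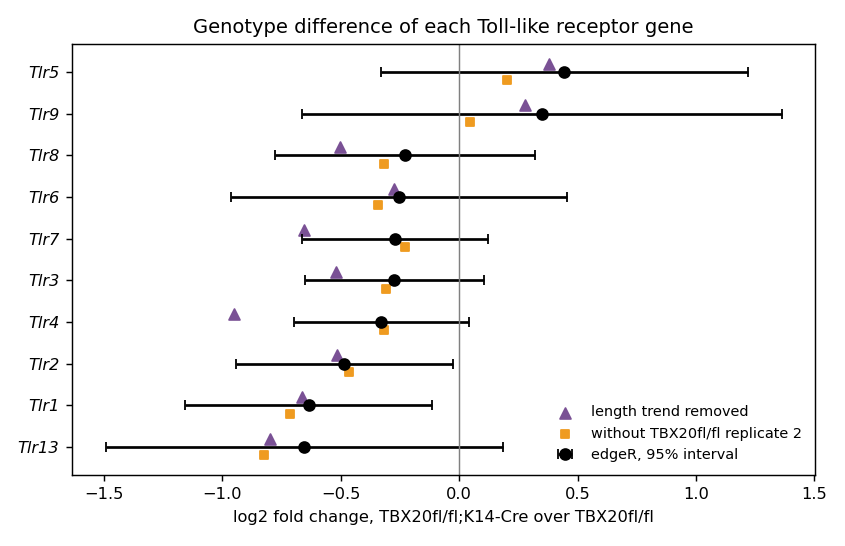
Log2 fold change of each receptor gene from counts, TBX20fl/fl;K14-Cre over TBX20fl/fl, with its 95% interval (black), after removal of a transcript length trend (purple triangles) and without TBX20fl/fl replicate 2 (orange squares). The intervals of Tlr1 and Tlr2 lay below 0 and the other 8 included 0, and the value of Tlr4 moved furthest with the length trend, from -0.33 to -0.95.

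Mice varied together across the family. Summed over the 10 genes, FPKM was 46.8, 49.0, 66.7 and 66.4 in cKO replicates 1 to 4 and 65.4, 44.8, 71.5 and 76.3 in control replicates 1 to 4, or 57.2 ± 10.8 and 64.5 ± 13.9 (SD, n = 4 each). The surface receptors summed to 27.6 ± 4.90 and 32.0 ± 5.63 and the endosomal receptors to 29.6 ± 5.94 and 32.4 ± 8.74. In the cKO group, replicates 1 and 2 were each the lowest mouse for 5 members, and replicates 3 and 4 the highest for 6 and 4. Among controls, replicate 4 was the highest for 7 members. Replicate 2 was the lowest for 9 in FPKM but for 5 in TMM-scaled CPM, on which the scaling factor of that library was 0.735 against 1.01 to 1.07 in the others.

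**Figure D3:**
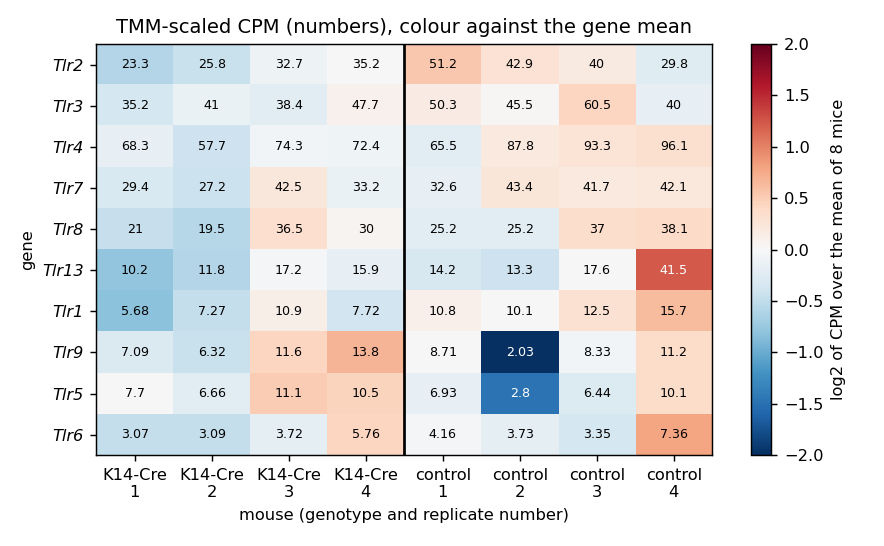
TMM-scaled CPM of each receptor gene (rows, ordered by mean FPKM) in each mouse (columns), printed in each cell; colour is the log2 ratio to the gene's mean over the 8 mice, from blue (below) to red (above). TBX20fl/fl;K14-Cre replicates 1 and 2 were below the gene mean for all 10 genes, TBX20fl/fl replicate 4 was high for Tlr13 (41.5), and TBX20fl/fl replicate 2 was far below the mean for Tlr9 (2.03) and Tlr5 (2.80).

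Cell type markers were set beside these values, since the receptors are carried mainly by myeloid cells. Macrophage markers (8 genes) summed to an FPKM of 545, 542, 837 and 748 in cKO mice and 544, 681, 832 and 817 in controls, with 1 of 8 genes lower at an unadjusted p under 0.05, where 5.91% of all genes tested were. The lowest 3 mice for these markers were cKO replicates 1 and 2, which were also low for the summed receptors, and control replicate 1, which was not. Control replicate 2, the lowest for the summed receptors in FPKM, was at 681. In TMM-scaled values it was not the lowest. Its mean log2 CPM over the receptors was 3.92, against 3.84 and 3.86 in cKO replicates 1 and 2. The marker sums are FPKM without that scaling. Neutrophil markers ran from 109.6 to 297 in cKO mice and from 296 to 979 in controls, with 8 of 10 genes lower. Monocyte markers ran from 476 to 662 and from 585 to 1231, with 6 of 6 lower. Mast cell markers, the only marker list whose groups did not overlap, were at 478 to 535 against 581 to 866, with 2 of 5 genes lower. Among single genes 1.92% had all cKO mice below in FPKM, and no such share was computed for summed lists. Langerhans cell markers ran from 1625 to 2741 against 1839 to 3311 (2 of 5 lower), conventional dendritic cell markers from 45.5 to 92.4 against 60.3 to 90.6 (0 of 6) and plasmacytoid dendritic cell markers from 27.6 to 34.8 against 17.9 to 32.3 (1 of 4). Keratinocyte markers, at 3257 to 4176 against 2853 to 4225, and B cell markers, at 0.61 to 1.02 against 0.22 to 1.45, overlapped, with 0 of 6 and 0 of 5 lower. Eosinophil and basophil markers had 2 of 4 tested genes lower, at 4.32 to 7.21 against 6.24 to 11.04, and fibroblast markers had 2 of 4 higher, where 2.45% of all genes tested were, at 2907 to 3733 against 2829 to 4589. No marker was at 0 in all mice, and Epx of eosinophils had at most 3 counts in any mouse. The part of these cell types in the receptor values was not tested.

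Genes that act with the receptors or downstream of them, and other pattern-recognition receptors, were grouped by role into 7 lists. Of the listed genes, 0 had an adjusted p under 0.05 in edgeR's test, while DESeq2 called Saa3 and Clec4e. Unadjusted counts are therefore descriptions, to be read against the 5.91% of all genes tested that were lower and the 2.45% that were higher at an unadjusted p under 0.05. Of 11 genes listed as accessory and ligand-handling, which also hold the receptors Tlr11 and Tlr12, 3 were lower, with a median log2 fold change of -0.40. The count was 2 with the block and 1 with the length trend removed. Cd14, which hands lipopolysaccharide to TLR4, had an FPKM of 9.57, 16.9, 17.9 and 24.8 in cKO mice and 27.0, 40.5, 23.0 and 47.0 in controls, with a log2 fold change of -1.20. Ly86, the MD-1 partner of the receptor homologue RP105, was at -0.91 and Ly96, the TLR4 co-receptor MD-2, at -0.71. With the length trend removed, Cd14 was at -0.95, Ly86 at -0.38 and Ly96 at -0.04.

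Endosomal trafficking and processing genes (20, of which 3 were lower, median -0.06) centred near 0, at 0.047 with the length trend removed and -0.019 without control replicate 2. The 3 were 5430427O19Rik (Tasl, an adaptor that links endosomal receptors to IRF5) at -1.26, Ctss, a protease of the endosome that can cleave the receptors, at -0.89, and Slc15a3, an endosomal peptide transporter, at -0.64. The TIR adaptors (6 genes, 1 lower, median 0.11) had values on both sides of 0, and their median was -0.067 without control replicate 2 and -0.010 with the length trend removed. Myd88, the adaptor of nearly all Toll-like receptors, had an FPKM of 31.2, 38.0, 33.0 and 46.7 in cKO mice and 51.8, 54.5, 50.1 and 47.7 in controls, so the groups did not overlap (cKO below in 1.92% of all genes), and its log2 fold change was -0.65 (adjusted p = 0.498 from edgeR's test). Ticam1, which encodes TRIF, was at 0.19 and Sarm1 at 0.39, the latter at 5 to 27 counts. Of 26 kinases, ligases and transcription factors of these pathways 2 were lower (median 0.07), Irf7, which drives interferon genes, at -0.66 and the kinase Map3k8 at -0.38. Ube2n, a ubiquitin-conjugating enzyme, was next at -0.56. This list had 3 lower, 1 higher and a median of -0.037 without control replicate 2, and 4 lower, 0 higher and a median of -0.056 with the length trend removed. Negative regulators (15 genes, 2 lower) had a median of -0.16, or -0.24 without control replicate 2. They were led by the inhibitory receptor Lilrb4a at -1.17 and the adaptor Dok1 at -0.53, with Socs1, a suppressor of cytokine signalling, at -0.60. With the length trend removed Ctss was at -0.52, Sarm1 at 0.16 and Socs1 at -0.23.

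Of the lists, the downstream genes had the median furthest from 0. Of 20 genes that Toll-like receptor signalling is known to induce, 17 were lower at an unadjusted p under 0.05 and all 20 had a log2 fold change below 0, with a median of -1.29 against 0.03 for all genes tested. Without control replicate 2 there were 14, and with the length trend removed 14. Saa3, an acute-phase protein, was at -2.56, the cytokine Il1b at -2.06 and the co-stimulatory receptor Cd40 at -1.08. Cd40 FPKM was 5.46, 5.80, 7.51 and 8.78 in cKO mice and 11.4, 15.9, 13.9 and 8.51 in controls, with an overlap of 1 mouse on each side. Many other receptors and cytokines are known to induce the same genes. Beside them, neutrophil markers had a median log2 fold change of -1.69 (8 of 10 lower) and monocyte markers of -0.96 (6 of 6 lower), and their part in the values of this list was not tested.

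Other pattern-recognition receptors, 20 genes that include C-type lectins, formyl peptide and scavenger receptors, RIG-I-like and NOD-like receptors with the adaptor Mavs, and DNA sensors, had 9 lower at an unadjusted p under 0.05 and a median of -0.52. Clec4e (Mincle, a receptor of mycobacterial glycolipid) had an FPKM of 4.54, 6.29, 6.29 and 11.3 in cKO mice and 19.02, 25.7, 12.7 and 17.5 in controls, without overlap, and a log2 fold change of -1.63. Clec4d, its partner, was at -1.76 and Zbp1, a sensor of Z-form nucleic acid, at -0.86, both without overlap in FPKM. With the length trend removed Zbp1 was at -0.53. For each of these 3 the edgeR adjusted p was 0.498. The difference between this list and the Toll-like receptors was not tested. Tlr11 (39 to 117 counts) and Tlr12 (1 to 14 counts), which sense parasite profilin, were the other Toll-like receptor genes in the table and, though in the accessory list, were not among the 10.

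**Figure D4:**
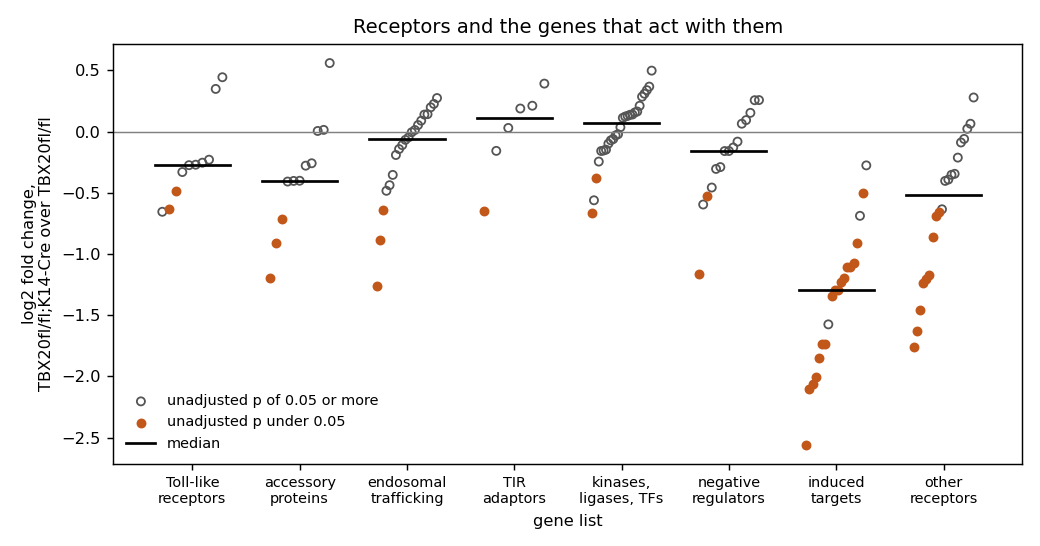
Log2 fold changes from counts, TBX20fl/fl;K14-Cre over TBX20fl/fl, of the 10 receptors and of 7 lists of pathway genes, induced targets and other pattern-recognition receptors, 1 point per gene, filled where the unadjusted edgeR p was under 0.05; bars are medians. The receptors, at a median of -0.27, lay nearer to 0 than the induced targets, at -1.29.

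Genes whose pattern over the 8 mice was most like that of each receptor were found by the Pearson correlation of log2 CPM among the 13262 genes whose mean FPKM reached 1, as a description over 8 points that share depth and tissue composition. Tlr7 was closest to the leukocyte surface genes Cd300lb (r = 0.976), Cd84 (0.960) and Ly9 (0.959). Tlr8 was closest to Adgre1 (0.955), which encodes the macrophage marker F4/80, to Pid1 (0.948) and to the leukocyte gene Laptm5 (0.948). Tlr3 was closest to Zbtb2 (0.917) and to the interferon-inducible genes Gbp4 (0.915) and Trim21 (0.913). Tlr4 was closest to St8sia4 (0.964), Arl11 (0.955) and Necap1 (0.945), and Tlr2 to Slc2a6 (0.944), Stoml1 (0.922) and Tmem67 (0.914).

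Tlr13 was closest to the cornified envelope genes Lce3f (0.950) and Sprr1b (0.943) and to Rab31 (0.942), and Tlr6 to Prg4 (0.937), Entpd1 (0.932) and the wound keratin Krt6b (0.926). Tlr1 was closest to Adgrg3 (0.927), Ppp2r5a (0.902) and Rab31 (0.881). The highest values belonged to Tlr9, with Ptpre (0.996) and Sema4a (0.995), and to Tlr5, with Man2a1 (0.995) and Tmem214 (0.994), the 2 members that were far lower in control replicate 2 than in the other mice. Without that mouse these 4 values ran from 0.981 to 0.989.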

How the data were processed

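Single-end reads of 50 bases were filtered by the authors with SOAPnuke and aligned with HISAT, and the counting program is not given in the sources used here. The authors deposited estimated counts (expected counts), which are not normalized, and FPKM values for 18901 genes in each of 8 mice. Not used were 16 columns of TPM and normalized counts, 40 of group means and 51 that hold fold changes and p-values of the authors' 17 comparisons. Counts were rounded, genes reaching 10 counts in all were kept, and the genotypes were compared with TMM scaling and the quasi-likelihood test of edgeR 4.0.16 (R 4.3.3), with Benjamini-Hochberg adjustment and a threshold of 0.05. FPKM values were compared by exact permutation tests and by limma 3.58.1 on log2(FPKM + 1) at a mean FPKM of at least 0.1. In limma's test the receptors' adjusted p ran from 0.457 to 0.877. DESeq2 1.42.0 served as an alternative. The procedures were tested on simulated counts.

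The members, lists, tests and alternatives were chosen with earlier results of these data known. Named genes are the 10 members, the 3 genes of each list with the smallest unadjusted p, and the 3 genes most correlated with each member, of which 1 each for Tlr5 and Tlr9 is not reported here. Cd14, Myd88, Cd40 and Clec4e were given by mouse after their values were seen. Transcript lengths came from counts and FPKM, and the length trend used genes that averaged 50 counts or more.

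Mice are different animals, and the labels give replicate numbers but name no pair, litter or batch. Deviations from the group means correlated at 0.108 to 0.323 in the 4 same-numbered pairs (mean 0.221) and at -0.067 on average in other pairs. Because such deviations cancel within a group, a positive mean in some pairs brings a negative mean in the others. Pairing by number is therefore an assumption of the block fits and pair counts, not a known part of the design. Gene models and shared stretches are from GENCODE M21 and promoters from RefSeq.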

Additional observations from a re-analysis of the deposited data

How the results depend on the processing

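No receptor passed the adjusted threshold in any of the 16 alternatives of the count comparison (smallest adjusted p 0.326, in DESeq2's Wald test), and 159 of 160 fold changes kept their direction. The exception was Tlr6, at 0.061 without TBX20fl/fl replicate 4, which ranged from -0.50 to 0.061 when each mouse was left out. The number of receptors with an unadjusted p under 0.05 was 2, but 1 with the replicate block, 6 with the length trend removed, 6 with that trend and the block together, and 0 to 3 when each mouse was left out. It was 0 without TBX20fl/fl;K14-Cre replicate 1 or replicate 2, and 1 without TBX20fl/fl replicate 3 or 4. The block on replicate numbers changed no adjusted call. The 6 receptors under the length trend were lower, in a test that called 5.76% of all genes tested lower, and the smallest adjusted p there was 0.536 in edgeR's test. The median log2 fold change was -0.52 with the trend removed and -0.39 to -0.19 when each mouse was left out. DESeq2 called 10 genes in all and 2 of the list genes. For the lists, leaving out mice and other scalings, filters and tests were chosen after seeing the data, as were correlations without TBX20fl/fl replicate 2. The lowest counts in any mouse were 24 for Tlr9, 33 for Tlr5 and 44.3 for Tlr6. Standard errors did not follow the counts throughout, at 0.372 for Tlr13 with 157 to 828 counts per mouse and 0.232 for Tlr1 with 113 to 313.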
